A study of Homo sapiens with 36 samples.

Results

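Axon guidance ligands and receptors were followed in human neurons of 3 RAI1 genotypes. They were defined by gene symbol: semaphorins of classes 3 to 7, plexins, neuropilins, ephrins, Eph receptors, Slits, Robos, netrins, netrin-Gs, UNC5 receptors and DCC, which gave 71 of the 62710 genes in the count table. Semaphorins made up 20 of them, plexins and neuropilins 11, ephrins 8, Eph receptors 14, Slits and Robos 7, and netrins with netrin-Gs and their receptors 11. The cells were H9 human embryonic stem cells turned into neurons (iNeurons) by doxycycline-driven expression of NGN2, a proneural transcription factor, in unedited (WT), RAI1+/- (HET) and RAI1-/- (KO) lines. RAI1 encodes a chromatin-associated regulator of transcription whose loss of 1 copy is the main genetic lesion of Smith-Magenis syndrome. RNA was taken at days 0, 3 and 7, with 4 libraries in each of the 9 groups. All groups share the H9 background, the NGN2 induction protocol and 1 batch label. How many edited lines stand behind each genotype is not given in the sources used here, so a line and its genotype cannot be told apart.

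Guidance cues steer growth cones by attraction and repulsion. Class 3 semaphorins are secreted and act mostly through neuropilin-plexin complexes, whereas SEMA3E binds PLXND1 directly; ephrins and Eph receptors signal between touching cells; Slits repel through Robos; and netrin-1 attracts through DCC and repels through UNC5 receptors. Growing neurons use these families to choose paths, cross the midline and sort into maps.

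Libraries held 23948079 to 56678796 counts, and replicates of a group correlated at r = 0.969 to 0.998 over 54 pairs (log scale, across genes). RAI1 itself was not lower in the edited lines: at day 7 it stood at 48.4 ± 14.1 CPM (counts over the library total, scaled to 1e6; SD, n = 4) in WT, 70.4 ± 19.2 in HET and 78.4 ± 11.9 in KO. The position and kind of the edit are not given in the sources used here, so counts over the whole gene do not check the genotype labels, and every direction below follows those labels. Pluripotency markers (7 genes, summed TPM) were at 878 to 1230 in WT at day 0 and at 7.43 to 13.8 at day 7, and mesendoderm markers stayed at or under 2.1 in every library. Replicates are labelled biological, with nothing on separate cultures, so p-values measure the spread between these libraries.

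In WT cells the guidance repertoire changed at each step. From day 0 to day 3, 22 of 70 tested members rose and 31 fell, against 60.0% of all genes changing in either direction. From day 3 to day 7, 42 rose and 13 fell, against 46.2% of all genes, and the median member rose by 1.22 on the log2 scale while the median over all genes was 0.01. A gene counts as changed here when its Benjamini-Hochberg adjusted p over all tested genes is under 0.05 in edgeR's quasi-likelihood test. On the log2(TPM + 1) scale the first step split 13 up and 37 down and the second 27 up and 12 down. UNC5D, a netrin receptor of the UNC5 family, fell by 7.40 (log2) from day 0 to day 3, and EPHA1, an Eph receptor, fell by 7.29. DCC rose by 5.79 between days 3 and 7, ROBO2 by 5.77 and EPHA8 by 5.48.

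The 2 members of each family with the highest WT level per transcript length (TPM) at day 7 are given here. ROBO1, the broad Slit receptor, stood at 51.4 ± 18.8 TPM (SD, n = 4), and ROBO3, which lowers Slit sensitivity before midline crossing, at 15.3 ± 12. The ephrin EFNA5 had 31.4 ± 7.8 TPM and EFNA3 6.65 ± 2.7. PLXNA3, a co-receptor for class 3 semaphorins, reached 21.7 ± 9.62 and NRP1 16.8 ± 4.35, 2 levels that lie within each other's spread. Among semaphorins the transmembrane SEMA6A (19.4 ± 5.73 TPM) and SEMA6D (16.8 ± 6.8) led, also within their spread. DCC had 8.74 ± 4.85 TPM and the GPI-anchored netrin-G2, NTNG2, 7.11 ± 1.54. EPHB6, an Eph receptor without kinase activity, and EPHB2 stood at 5.7 ± 3.2 and 5.36 ± 2.56. At the other end SEMA3E was at 0 to 0.02 TPM and NTNG1 at 0.01 to 0.09.

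The genotype comparisons touched few guidance genes before induction and many after it. At day 0, 3 of 68 tested members were higher in KO than in WT and none lower, against 2.08% of all genes called. Libraries did not overlap for 10 members in that comparison (9.42% of all genes). HET against WT also gave 3 of 68, all higher, against 1.63% of all genes. KO against HET gave 0 calls with edgeR and DESeq2 (0.856% of all genes, 0.333% lower; 3 members at an unadjusted p under 0.05), and its libraries did not overlap for 1 member (3.72% of all genes). In KO against WT, whose same-numbered replicates deviate together, a block for the replicate number gave 8 members, 7 higher and 1 lower. EFNA2, SEMA3D and SEMA6A, a transmembrane semaphorin, were the genes called in both edited genotypes, which share their WT libraries.

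At day 3, 41 of 69 tested members differed between KO and WT, against 21.6% of all genes: 36 were higher (12.6% of all genes) and 5 lower (8.93%). Same-numbered replicates deviate together at day 3, and with the replicate block 41 were higher and 9 lower in KO, and 12 higher and 3 lower in HET. The median member was 0.86 higher in KO (log2), beside -0.05 over all genes. HET against WT gave 11 members, 10 higher and 1 lower, against 3.28% of all genes (0.761% lower), and 7 or 16 without HET replicate 2 or 4. KO against HET gave 22, 19 higher and 3 lower, against 4.35% (2.77% higher, 1.58% lower), and 9 without HET replicate 1. The libraries of KO and WT did not overlap in CPM for 39 members (24.1% of all genes), and those of HET and WT for 18 (8.42%). On the log2(TPM + 1) scale limma called 15 members in KO against WT, all higher, and 1 in HET against WT; every member called by edgeR kept its direction there.

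At day 7, 42 of 71 members differed between KO and WT, 29 higher and 13 lower, against 32.6% of all genes (17.0% higher, 15.6% lower). HET against WT gave 25, 18 higher and 7 lower, against 14.4% (8.31% higher, 6.10% lower). Without WT and HET replicate 1 that comparison gave 24 higher and 19 lower, and limma on log2(TPM + 1) gave 0. KO against HET gave 1 higher and 0 lower, against 1.40% (0.737% lower): SLIT2, a secreted Slit, was 1.26 higher in KO (log2). That count was 0 to 6 with 1 library left out (0 without KO replicate 2, 6 without HET replicate 3), 7 with DESeq2 and 13 with the share of small structural RNA in the model. KO and WT libraries did not overlap for 44 members (39.4% of all genes) and HET and WT libraries for 22 (14.0%). Leaving out HET replicate 1, in which small structural RNA took 27.5% of counts against 2.84% to 13.4% in the other HET libraries, gave 39 members in HET against WT, and leaving out HET replicate 3 gave 16. Small structural RNA averaged 20.4% of counts in WT at day 7 (14.5% to 25.6%), 12% in HET and 12.2% in KO (9.9% to 15.8%). That share enters the CPM total used for overlap. The KO libraries of each day share no sample with those of the other day.

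Markers of several cell types differed between these groups. The summed level of neuron markers (10 genes, TPM) was 242 to 461 in WT, 400 to 1560 in HET and 835 to 3720 in KO at day 3, and 822 to 2120, 1840 to 8320 and 2520 to 4420 at day 7. Markers of neural crest and peripheral cells (7 genes) summed to 1.69 to 3.44 TPM in WT, 3.94 to 20.4 in HET and 17.4 to 95.6 in KO at day 3. At day 7 they summed to 13.5 to 36.6, 36.1 to 141 and 58.9 to 142. Sums of neural progenitor markers (6 genes) and dividing-cell markers (8 genes) overlapped between genotypes on both days. At day 7 the progenitor sums were 90.2 to 143 in WT, 83.5 to 208 in HET and 56.1 to 95.6 in KO. All 10 neuron markers were above 1 TPM on average in each group at both days, while 3 of the 7 crest and peripheral markers were under 1 in KO at day 3. Pluripotency markers summed to 20.9 to 34.2 TPM in WT, 34.3 to 72.8 in HET and 35 to 113 in KO at day 3, and to 7.43 to 13.8, 6.01 to 50.4 and 26.5 to 36.6 at day 7, with 4 of 7 under 1 on average in KO on both days. These sums are on the TPM scale. The log2(TPM + 1) scale shifted the median difference over all genes in KO against WT by 0.394 at day 3 and 0.403 at day 7. In HET against WT that shift was 0.219 and 0.641. The part of the marker differences in the guidance results was not tested. In bulk RNA, fewer cells of a type and less RNA per cell cannot be told apart.

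**Figure D1:**
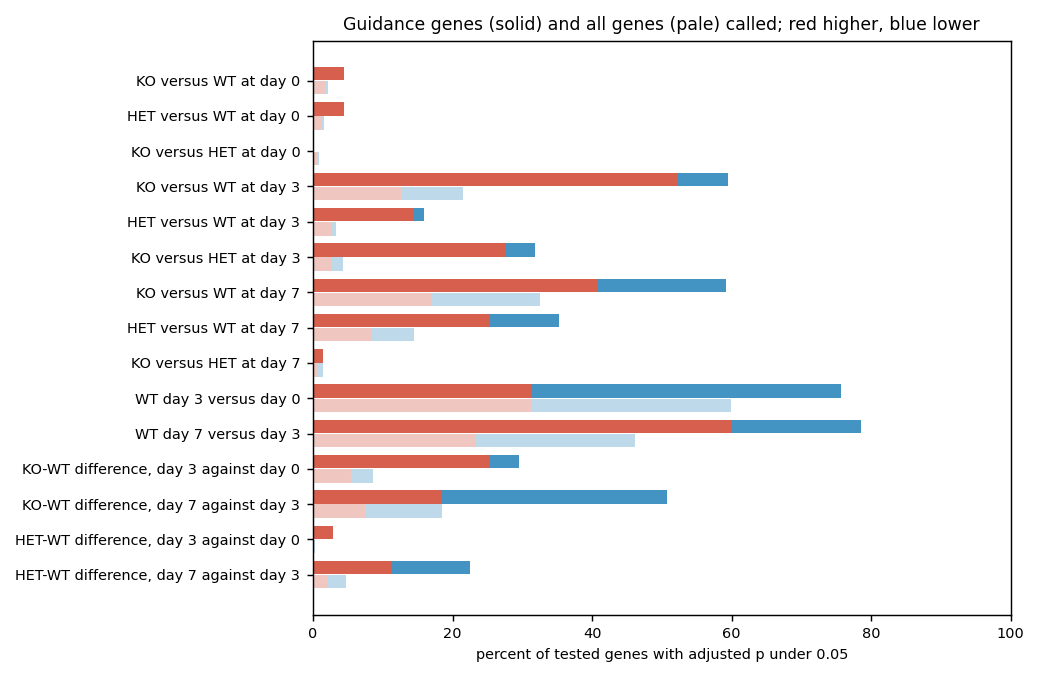
Percent of tested genes with an adjusted p under 0.05 in each of 15 comparisons (horizontal axis), for the guidance genes (solid bars) and all genes (pale bars), with higher in red and lower in blue. At day 3 the KO bar holds 36 higher and 5 lower guidance genes out of 69, and at day 7 it holds 29 higher and 13 lower out of 71.

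**Figure D2:**
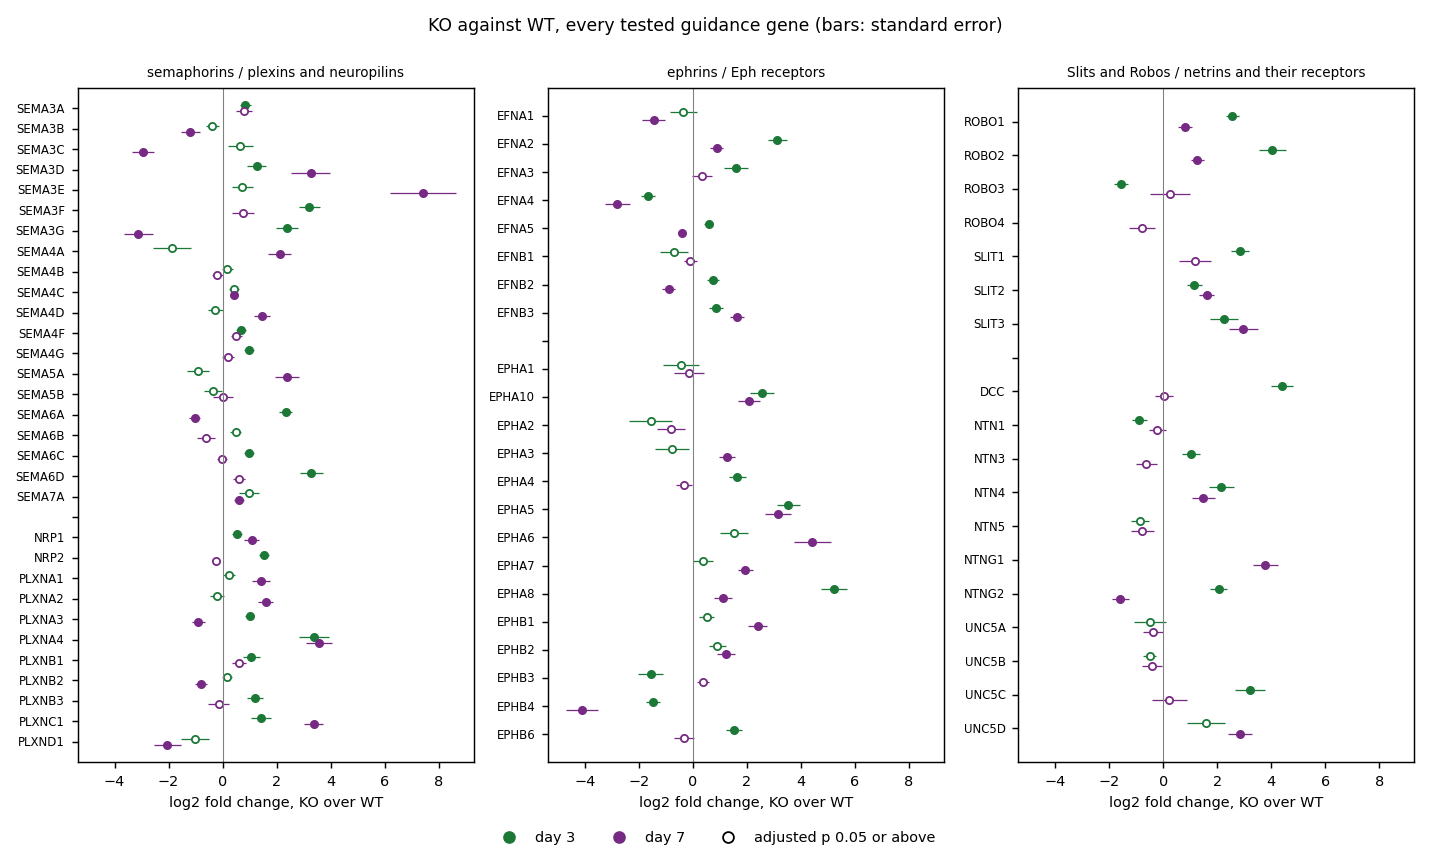
Log2 fold change of KO over WT (horizontal axis) for each tested guidance gene at day 3 (green) and day 7 (purple), with standard errors as bars; filled points have an adjusted p under 0.05. Several genes lie right of 0 at day 3 and left of 0 at day 7, among them SEMA3G, SEMA6A, PLXNA3, NTNG2, EFNA5 and EFNB2.

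Family counts are read against the shares of all genes given above, which were 21.6% at day 3 and 32.6% at day 7 for KO against WT, and 3.28% and 14.4% for HET. The members given in full below carry 46 calls, of which 19 held on the log2(TPM + 1) scale, 36 on the log2(FPKM + 1) scale and 40 with the share of small structural RNA in the model. On the TPM scale the calls lost in KO were those of SEMA3D at days 0 and 3, EPHB4, EFNB3, PLXNA4 and PLXNC1 at day 3, EFNB2 at days 3 and 7, and EPHA7, EFNA2, UNC5D and ROBO2 at day 7. In HET that scale kept the calls of EFNA2 at day 0 and EPHA7 at day 3 and no other. The FPKM scale lost PLXNC1 at day 3 and SEMA3D at days 0 and 3 in KO. In HET it lost SEMA3D at days 0 and 7, DCC and SEMA6D at day 3, and EFNB2, PLXNA4 and SEMA3E at day 7.

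Among ligands, 9 of 20 semaphorins were higher, none lower and 11 not called in KO at day 3, and 7 were higher and 4 lower at day 7. In HET, 3 were higher at day 3, and 4 were higher and 1 lower at day 7.

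SEMA3E, a secreted class 3 semaphorin that repels through PLXND1, had the largest fitted genotype difference. At day 7 the WT libraries read 0, 0.198, 0.124 and 0.23 CPM, the HET libraries 0.222, 3.3, 13.1 and 1.47, and the KO libraries 44, 16.5, 35.3 and 4.51. KO lay above every WT library, while HET replicate 1 fell inside the WT range. The log2 fold change was 7.43 ± 1.21 (SE) for KO (adjusted p = 0.000701) and 4.81 ± 1.13 for HET (adjusted p = 0.0136). At day 3 the gene was within 0.203 to 0.866 CPM in all 12 libraries and was not called. The KO value ran from 1.71 (log2(TPM + 1)) to 7.81 over 16 alternatives and stayed called in each. The HET value was 2.46 with the share of small structural RNA in the model (adjusted p = 0.152) and 0.85 on the log2(FPKM + 1) scale (0.196). The 250 bases before its RefSeq start (GRCh38.p14, chr7:83649140-83649389, minus strand; 46.4% GC, 6 CpG) are shown because this gene had the largest genotype difference among the members:

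SEMA3E: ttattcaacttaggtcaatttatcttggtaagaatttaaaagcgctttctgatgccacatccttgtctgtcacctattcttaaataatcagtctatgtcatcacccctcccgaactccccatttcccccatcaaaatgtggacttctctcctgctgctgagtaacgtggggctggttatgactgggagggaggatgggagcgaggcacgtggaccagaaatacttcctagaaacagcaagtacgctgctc

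Its receptor differed from WT in the other direction at day 7. PLXND1, the plexin that binds SEMA3E without a neuropilin, read 224, 144, 162 and 99.8 CPM in WT at day 7 and 31.8, 32, 37.5 and 52.3 in KO, with no overlap. KO was lower by a log2 fold change of -2.06 ± 0.50 (adjusted p = 0.0074). HET libraries read 260, 61.6, 70.7 and 77.8, and HET was not called. The genes are not neighbours: PLXND1 lies on chromosome 3 (129555175 to 129606818, GRCh38) and SEMA3E on chromosome 7 (83363238 to 83649113).

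SEMA3D, another secreted class 3 semaphorin, lies on chromosome 7 (84995553 to 85186855) as SEMA3E does. The genes are not adjacent, because SEMA3A (83955777 to 84492724) lies between them. At day 0 it read 0.77, 1.45, 1.24 and 1.51 CPM in WT, 3.98, 2.87, 3.26 and 3.39 in HET and 4.1, 2.36, 2.54 and 2.65 in KO, so both edited groups lay above WT. By day 7 WT libraries read 1.56, 9.82, 8.7 and 7.89, HET 6.28, 33.5, 90.1 and 20.1, and KO 123, 42.4, 65 and 37.9. KO stood above every WT library and HET replicate 1 did not. KO was higher by 1.26 ± 0.25 at day 0, 1.26 ± 0.36 at day 3 and 3.26 ± 0.71 at day 7 (log2; adjusted p = 0.0159, 0.0227 and 0.00405). HET was higher by 1.45 at day 0 and 2.29 at day 7 (adjusted p = 0.00659 and 0.0406). The day 0 KO call was lost without WT replicate 3 (adjusted p = 0.0612), the day 3 call without KO replicate 1 or WT replicate 1 or 2 (0.0632 to 0.0769), and the day 7 HET call without any 1 of HET replicates 2 and 3 and the 4 WT replicates (0.066 to 0.174), falling to 1.41 without HET replicate 3. That HET value was 1.00 with the share of small structural RNA in the model (adjusted p = 0.303), 1.25 on the log2(FPKM + 1) scale (0.143) and 2.04 with the replicate block (0.0649). SEMA3C, which lies 80742538 to 80922359 on the same chromosome, was lower than in WT at day 7 in KO (-2.94) and in HET (-2.05). Between days 3 and 7 its mean went from 3.44 to 53.9 CPM in WT, 5.52 to 13.7 in HET and 5.49 to 6.98 in KO.

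SEMA6D, a transmembrane semaphorin that acts through plexin-A1, differed early. At day 0 WT read 7.79 to 14.6 CPM, HET 14.9 to 36.2 and KO 15.3 to 42.4, so both edited groups already lay above WT. Neither was called there (KO 1.225, adjusted p = 0.126 in edgeR). WT libraries read 10.9, 15.4, 14 and 8.08 CPM at day 3, HET 82.2, 49.5, 64.3 and 16.2, and KO 200, 119, 89.9 and 68.5. Neither edited group overlapped WT. The log2 fold change was 3.29 ± 0.42 in KO (adjusted p = 0.000124) and 2.13 ± 0.40 in HET (adjusted p = 0.00859), the latter not called on the log2(TPM + 1) or log2(FPKM + 1) scale (adjusted p = 0.921 and 0.0695). At day 7, when WT itself had reached 177 to 290 CPM, KO read 312 to 337 and was not called (0.59). The KO-WT difference was smaller at day 7 than at day 3 by 2.71 on the log2 scale (adjusted p = 2e-04). Other semaphorins higher in KO than in WT at day 3 included SEMA3F (3.22), a repellent acting through NRP2, SEMA3G (2.39) and SEMA6A (2.33). SEMA3G and SEMA6A were lower in KO at day 7, by -3.12 and -1.02.

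Among semaphorin receptors, 7 of 11 plexins and neuropilins were higher, none lower and 4 not called in KO at day 3, and 5 were higher and 3 lower at day 7. In HET 1 was higher at day 3, and 4 were higher and 1 lower at day 7. PLXNA4, a plexin-A that pairs with neuropilins, read 0.877, 1.9, 1.17 and 1.96 CPM in WT at day 3 and 12, 33, 12.4 and 6.68 in KO. At day 7 it read 5.96, 12.6, 14.3 and 12.4 in WT, 30.7, 60.6, 74 and 15.7 in HET, and 200, 146, 141 and 53.1 in KO. No edited library at day 7 was as low in CPM as the highest WT library. The nearest were HET replicate 4 (15.7) and WT replicate 3 (14.3), with 13.4% and 23.5% small structural RNA in their totals. Whether they stay apart without that RNA was not tested. KO was higher by 3.39 ± 0.55 at day 3 and 3.57 ± 0.50 at day 7 (adjusted p = 0.000792 and 0.000273). HET was higher by 1.90 ± 0.47 at day 7 (adjusted p = 0.0162, 0.0549 without HET replicate 3). That HET value was 1.16 with limma on the log2(FPKM + 1) scale (adjusted p = 0.0617). With the share of small structural RNA in the model it was 1.55 (0.0505). PLXNC1, the receptor of SEMA7A, read 1.7, 5.11, 3.66 and 3.11 CPM in WT at day 7, 10.3, 23.4, 30.5 and 10.8 in HET, and 34.8, 39.5, 38.9 and 27.3 in KO. Both edited groups were above WT, by 3.38 ± 0.36 in KO and 2.38 ± 0.34 in HET (adjusted p = 5.07e-05 and 0.00117). NRP1, which binds class 3 semaphorins, was higher in KO than in WT by less, 0.54 at day 3 and 1.08 at day 7. NRP2 was higher in HET at day 3 (0.92) and lower at day 7 (-0.89). PLXNA3 was higher in KO at day 3 (1.00) and lower at day 7 (-0.89).

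**Figure D3:**
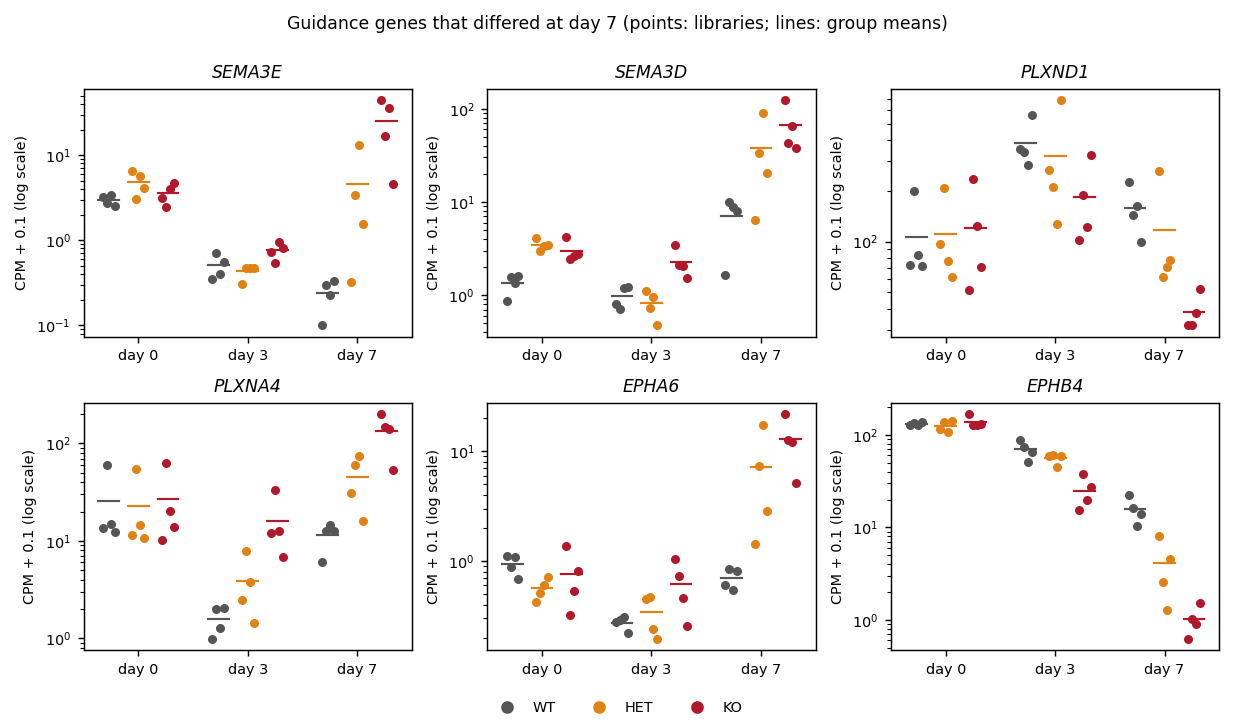
CPM + 0.1 on a log scale (vertical axis) in every library of the 9 groups, points coloured by genotype with group means as lines, for SEMA3E, SEMA3D, PLXND1, PLXNA4, EPHA6 and EPHB4. At day 7 the KO libraries of SEMA3E lie between 4.51 and 44 CPM against at most 0.23 in WT, while those of EPHB4 lie between 0.517 and 1.41 against at least 10.3.

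Ephrins changed in mixed directions. In KO 5 of 8 were higher and 1 lower at day 3, and 2 were higher and 4 lower at day 7. EFNA2, a GPI-anchored ephrin of the A class, was the member called in both edited genotypes on all 3 days. At day 0 it read 0.533, 0.948, 0.49 and 0.483 CPM in WT, 4.77, 4.7, 3.93 and 5.26 in HET, and 9.5, 6, 6.38 and 5.76 in KO. At day 3 the ranges were 0.884 to 3.31, 5.19 to 10.9 and 11.6 to 21.5, and at day 7 they were 10.5 to 13, 18.6 to 30.6 and 19.2 to 26.4. In none of these sets did an edited library reach down to WT. The KO log2 fold change was 3.50 ± 0.26 at day 0, 3.12 ± 0.36 at day 3 and 0.88 ± 0.25 at day 7 (adjusted p = 3.51e-06, 6.36e-05 and 0.0156). In HET it was 2.92, 2.28 and 0.89 (adjusted p = 1.67e-05, 0.00205 and 0.0289). The day 7 HET call was lost without any 1 of WT replicates 1, 2 and 3 (adjusted p = 0.0525 to 0.083), and the value fell to 0.51 without HET replicate 1. Its promoter, shown because the gene differed before induction, is GC-rich (84% GC, 36 CpG; GRCh38.p14, chr19:1285623-1285872, plus strand):

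EFNA2: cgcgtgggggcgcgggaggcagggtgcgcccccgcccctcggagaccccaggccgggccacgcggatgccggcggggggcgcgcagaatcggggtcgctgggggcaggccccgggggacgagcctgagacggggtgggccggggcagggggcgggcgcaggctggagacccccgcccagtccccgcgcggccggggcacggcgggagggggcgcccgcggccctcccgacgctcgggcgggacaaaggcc

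EFNB3, a transmembrane ephrin known as a midline barrier to corticospinal axons, read 12.3, 30.6, 27.3 and 24.4 CPM in WT at day 7, 55.7, 56.8, 71 and 37.4 in HET, and 75.4, 71.1, 85.4 and 61.7 in KO. Both edited groups lay above WT. KO was higher by 1.63 ± 0.26 and HET by 1.18 ± 0.26 (adjusted p = 0.000693 and 0.0101). At day 3 it was higher in KO by 0.86 (adjusted p = 0.0349), a call lost without any 1 of 7 of the 8 libraries (0.0535 to 0.0997), KO replicate 4 being the exception, and also with no filter (0.0513). EFNB2, the transmembrane ephrin of arteries and of many neurons, read 45.7, 64.9, 69.7 and 65.4 CPM in WT at day 3 and 107, 144, 94.7 and 73.3 in KO. At day 7 WT read 122, 69.6, 73.2 and 71, HET 53.8, 57.4, 47.8 and 44, and KO 31.3, 50.1, 55.1 and 45.6. KO was thus above WT at day 3 and below it at day 7, without overlap on either day: 0.75 ± 0.21 and then -0.90 ± 0.23 (adjusted p = 0.0231 and 0.0106). On the log2(TPM + 1) scale neither was called (1.19 and -0.27; adjusted p = 0.231 and 0.784), and with the share of small structural RNA in the model the day 7 value was -0.69 (0.05). The day 3 call was lost without KO replicate 2 or WT replicate 1 (adjusted p = 0.0744 and 0.0681). HET was lower at day 7 by -0.77 (adjusted p = 0.0416). Without any 1 of HET replicates 2, 3 and 4 or WT replicates 1 and 3 the adjusted p was 0.0726 to 0.124, and 0.058 with the replicate block. The HET value was 0.19 higher on the log2(TPM + 1) scale (adjusted p = 0.73) and -0.62 on the log2(FPKM + 1) scale (0.0574), both with limma. With the share of small structural RNA in the model it was -0.57 (0.163). EFNA4 was lower in KO on both days, by -1.66 and -2.80.

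Of 14 Eph receptors, the partners of ephrins, 5 were higher, 2 lower and 7 not called in KO at day 3, and 8 were higher, 1 lower and 5 not called at day 7. In HET 2 were higher at day 3, and 6 were higher and 1 lower at day 7. EPHA6 read 0.501, 0.744, 0.445 and 0.71 CPM in WT at day 7, 1.33, 7.34, 17.3 and 2.75 in HET, and 21.8, 12.5, 12.2 and 5.05 in KO. No edited library fell in the WT range, with a log2 fold change of 4.42 ± 0.69 in KO and 3.44 ± 0.67 in HET (adjusted p = 0.000524 and 0.00514). EPHA5, which binds ephrin-A ligands, was higher in KO than in WT by 3.53 at day 3 and 3.16 at day 7, and EPHA8 by 5.21 and 1.10. The day 3 values start from very low WT levels, 0.0468 to 0.239 CPM for EPHA5 and 0.039 to 0.215 for EPHA8. The KO means at day 3 were 1.84 and 4.72 CPM.

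EPHB4, a receptor of ephrin-B2 best known from veins, was lower in KO than in WT at days 3 and 7. It read 129, 136, 129 and 138 CPM in WT at day 0 and 127 to 168 in KO, which was not called. At day 3 WT read 89.1, 74.9, 50.3 and 65.5 and KO 15.2, 37.4, 19.5 and 27.3. At day 7 WT read 22.5, 16, 10.3 and 14, HET 8.04, 2.44, 1.18 and 4.42, and KO 0.517, 0.922, 0.798 and 1.41. KO lay under every WT library on both later days. The KO log2 fold change was -1.47 ± 0.26 at day 3 and -4.11 ± 0.59 at day 7 (adjusted p = 0.00122 and 0.000334), and the difference grew between these days by -2.67 (adjusted p = 0.000431). HET was lower at day 7 by -1.89 (adjusted p = 0.0303; 0.0548 to 0.0841 without any 1 of HET replicates 2, 3 and 4 or WT replicates 1 and 2). EPHB4 exons overlap those of SLC12A9, and whether the counting used strand is not given in the sources used here.

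EPHA7, a receptor of ephrin-A ligands in cortex and retina, set HET apart from KO at day 3. At day 0 WT read 16 to 33.7 CPM, HET 37.3 to 138 and KO 32.4 to 96, and neither edited group was called. The change of the HET-WT difference from day 0 to day 3 was not called either (1.845, adjusted p = 0.186 in edgeR). At day 3 WT read 4.89, 6.93, 4.38 and 5.59 CPM, HET 122, 46.5, 27.8 and 37.2, and KO 6.24, 8.2, 6.21 and 7.33. HET stood above all other libraries of that day, and KO and WT overlapped. HET was 3.42 ± 0.39 above WT (adjusted p = 0.000229), and KO was 3.04 ± 0.39 below HET (adjusted p = 0.000849), whereas KO against WT was 0.38 and not called. At day 7 WT spanned 6.14 to 10.2 CPM, HET 15.6 to 37.3 and KO 21.3 to 37.1, with both edited groups above WT: 1.70 ± 0.28 in HET and 1.94 ± 0.28 in KO (adjusted p = 0.00212 and 0.000329).

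The 250 bases before a RefSeq start of PLXNA4 and of EPHB4, which were higher and lower in KO than in WT at day 7, are shown. Both stretches were chosen because they hold CAGATG or its reverse complement CATCTG, a form of the E-box bound by proneural factors such as NGN2. Capitals mark that motif. It was searched on both strands in the 250 bases before each RefSeq start (GRCh38.p14). It was present in 4 of the 60 members with an entry (6.67%), against 12.2% of 35116 promoters of equal length. The 60 members are represented by 60 promoters, so no other start of a member enters the 6.67%. The PLXNA4 stretch (chr7:132576471-132576720, minus strand) lies inside the gene, which GENCODE places at 132123332 to 132648688. It therefore precedes an internal start, and whether that start is used in these cells was not tested. The motif starts 7 bases before it, and in EPHB4 (chr7:100827524-100827773, minus strand) 231 bases before the start. SEMA3B and SEMA4A are the other members with the motif. The PLXNA4 and EPHB4 stretches read:
PLXNA4: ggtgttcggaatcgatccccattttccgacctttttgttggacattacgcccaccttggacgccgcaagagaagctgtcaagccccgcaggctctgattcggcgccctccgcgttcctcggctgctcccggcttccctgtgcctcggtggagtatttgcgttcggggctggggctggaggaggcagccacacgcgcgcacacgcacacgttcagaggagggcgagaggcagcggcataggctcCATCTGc
EPHB4: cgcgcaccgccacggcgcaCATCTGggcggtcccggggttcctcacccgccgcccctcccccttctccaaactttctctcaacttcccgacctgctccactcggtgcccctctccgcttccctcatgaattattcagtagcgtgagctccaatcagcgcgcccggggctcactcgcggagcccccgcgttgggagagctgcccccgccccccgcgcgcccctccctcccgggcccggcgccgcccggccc

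All 6 tested Slits and Robos were called in KO against WT at day 3, 5 higher and 1 (ROBO3) lower, with ROBO4 not tested, and at day 7, 4 of 7 were higher and none lower. In HET 1 was higher and 1 lower at day 3, and at day 7 none of 7 was called with edgeR (2 at an unadjusted p under 0.05). ROBO2, a Slit receptor, read 1.07, 5.76, 5.08 and 6.21 CPM in WT at day 3, 11.6, 15.5, 18.1 and 7.66 in HET, and 131, 79.4, 63.1 and 37.1 in KO. The 3 genotypes did not overlap. KO was 4.04 ± 0.51 above WT and 2.52 ± 0.47 above HET (adjusted p = 0.000117 and 0.00989), while HET against WT was 1.52 and not called. At day 7 WT read 137, 295, 215 and 287 CPM and KO 651, 475, 587 and 516. KO was higher by 1.26 ± 0.24 (adjusted p = 0.00175) and again lay above every WT library.

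SLIT1, a secreted repellent of the nervous system, read 3.55, 4.98, 3.6 and 3.66 CPM in WT at day 3, 7.5, 7.91, 6.95 and 6.35 in HET, and 11, 47.2, 28.1 and 25.3 in KO. The 3 genotypes were again apart, with KO 2.84 ± 0.34 above WT (adjusted p = 8.38e-05); HET was 0.87 above WT and not called. SLIT3 read 2.42, 15.1, 3.63 and 5.09 CPM in WT at day 7, 13.8, 15.4, 28.7 and 9.97 in HET, and 83.7, 36.3, 50.4 and 27.4 in KO. KO did not overlap WT and was higher by 2.97 ± 0.52 (adjusted p = 0.00112). ROBO1 was higher than in WT by 2.56 at day 3 and 0.80 at day 7 in KO, and by 1.37 at day 3 in HET. ROBO3 was lower at day 3, by -1.57 in KO and -1.09 in HET. SLIT1 exons overlap those of the readthrough gene ARHGAP19-SLIT1.

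Netrins, netrin-Gs and netrin receptors all held called members. In KO 5 of 10 tested members were higher and 1 lower at day 3, and 3 of 11 were higher and 1 lower at day 7, when the 36.4% called was close to the 32.6% of all genes. DCC, the receptor for netrin attraction, read 2.1, 3.74, 4.68 and 3.78 CPM in WT at day 3, 27.5, 22.8, 20.7 and 8.32 in HET, and 87.6, 128, 58.4 and 38.7 in KO. These 3 ranges did not overlap and were ordered WT, HET, KO. KO was 4.41 ± 0.41 and HET 2.45 ± 0.38 above WT (adjusted p = 1.4e-05 and 0.00241), and KO was 1.96 ± 0.37 above HET (adjusted p = 0.0101). The HET value was 0.90 on the log2(TPM + 1) scale (adjusted p = 0.967) and 1.18 on the log2(FPKM + 1) scale (0.0593). At day 0 the gene read 2.49 to 5.8 CPM in all 12 libraries, and at day 7 the WT libraries at 91.3 to 273 overlapped KO at 107 to 291, with differences of -0.10 and 0.02. The KO-WT difference rose by 4.57 on the log2 scale from day 0 to day 3 and fell by 4.42 from day 3 to day 7 (adjusted p = 1.93e-06 and 2.64e-07). NTN1, the netrin that binds DCC, was lower in KO at day 3 by -0.88 (adjusted p = 0.0468 in edgeR). At day 0 it read 2.07 to 3.02 CPM in WT, 5.05 to 21.1 in HET and 6.34 to 13.2 in KO. Neither edited group was called there (1.83 in KO and 1.91 in HET, adjusted p = 0.0616 and 0.0613). The KO-WT difference of NTN1 shifted by -2.66 from day 0 to day 3 (adjusted p = 0.00139).

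UNC5C, a repulsive netrin receptor, read 0.467, 3.28, 2.6 and 1.89 CPM in WT at day 3, 2.41, 7.59, 6.86 and 2.44 in HET, and 26, 26.8, 15.4 and 10.2 in KO. KO lay above all other libraries, by 3.22 ± 0.54 against WT (adjusted p = 0.00102). UNC5D read 0.501, 3.85, 2.84 and 1.73 CPM in WT at day 7, 7.86, 13.4, 15.6 and 7.41 in HET, and 13.7, 15.6, 19 and 15.8 in KO. Both edited groups were above WT, by 2.85 ± 0.44 in KO and 2.24 ± 0.43 in HET (adjusted p = 0.00049 and 0.00499). NTNG1, the GPI-anchored netrin-G1, was higher at day 7 by 3.78 in KO and 2.54 in HET, and NTNG2 was higher in KO at day 3 (2.05) and lower at day 7 (-1.59).

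**Figure D4:**
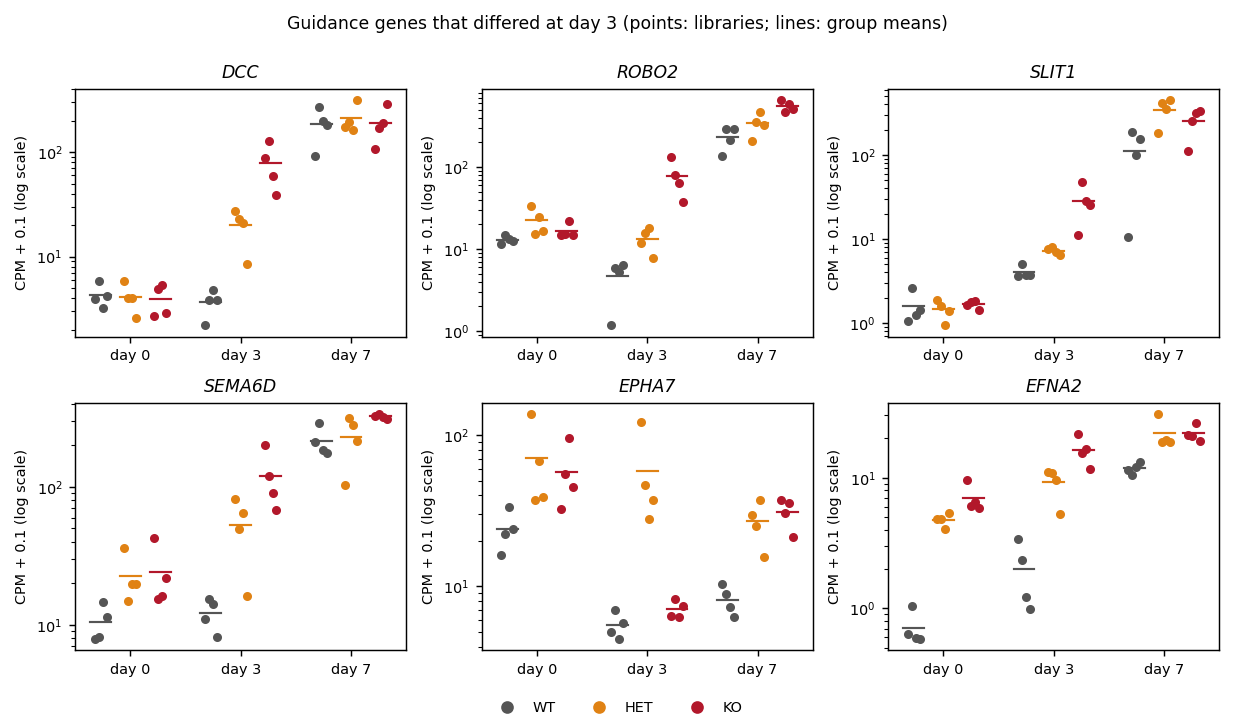
CPM + 0.1 on a log scale (vertical axis) in every library of the 9 groups, points coloured by genotype with group means as lines, for DCC, ROBO2, SLIT1, SEMA6D, EPHA7 and EFNA2. At day 3 DCC lies at 2.1 to 4.68 CPM in WT, 8.32 to 27.5 in HET and 38.7 to 128 in KO, and the 3 genotypes overlap at day 7.

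The size of the KO difference changed with the day for many members. Between days 0 and 3 it shifted for 21 of 71, 18 upward and 3 downward, against 8.55% of all genes (5.37% upward). Between days 3 and 7 it shifted for 36, 13 upward and 23 downward, against 18.5% (7.60% upward); on the log2(FPKM + 1) scale these splits were 10 and 5, and 17 and 19. For the HET difference 2 members shifted between days 0 and 3, DCC and ROBO1, both upward, against 0.271% of all genes (0.182% upward, 0.0888% downward), a count of 0 to 4 with 1 library left out (0 without WT day 3 replicate 1, 4 without HET day 3 replicate 4). Between days 3 and 7 it was 16, 8 in each direction, against 4.74%, and 9 or 24 without HET day 7 replicate 3 or 1. In KO, 22 members were called at both later days: 14 were higher on both, 2 lower on both (EFNA4 and EPHB4) and 6 higher and then lower (EFNA5, EFNB2, NTNG2, PLXNA3, SEMA3G and SEMA6A). Of these, EFNA5 was at -0.40 at day 7 but at 0.09 on the log2(TPM + 1) scale. None was lower and then higher. Over all genes called on both days, 2155 in number, 292 went from higher to lower and 130 the other way.

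Most of the other pathway genes that were called were higher in KO. A list of 58 co-receptors and signalling genes was chosen with earlier results of these data known, as the members were. The shares of neither set are independent support. Of this list, 28 of 56 tested genes were higher and 2 lower in KO at day 3. At day 7, 23 of 57 were higher and 4 lower. That is 53.6% and 47.4% called beside 21.6% and 32.6% of all genes. In HET 9 were higher and none lower at day 3, and 12 were higher and 3 lower at day 7, or 16.1% and 26.3% beside 3.28% and 14.4%. The median was 0.75 in KO at day 3 and 0.23 at day 7 (log2), beside -0.05 and -0.04 over all genes. GAP43, a growth cone protein, was at 19 ± 7.92 CPM in WT and 169 ± 73.1 in KO at day 3 (SD, n = 4), a log2 fold change of 3.15. DPYSL3, a collapsin response mediator, was higher in KO by 2.87 and SRGAP3, a Robo effector, by 2.84. TRIM9, a ubiquitin ligase that binds DCC, was lower by 1.02 and DOCK1, an activator of Rac, by 0.57. At day 7 the adhesion receptors DSCAM and CHL1 were higher in KO by 4.61 and 3.68 and the kinase PAK3 by 2.74. DOCK1 (-1.85), FLRT2 (-0.95) and the actin oxidase MICAL1 (-0.79) were lower.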

How the data were processed

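RNA-seq was deposited for 36 libraries, 9 groups of 4, from rRNA-depleted total RNA read as paired ends, per the labels' protocols. The submitters' processing notes name cutadapt 4.8, FastQC 0.11.8, MultiQC 1.20, STAR 2.7.8a, RSEM 1.3.3 and GRCh38; strand setting and annotation release are not given in the sources used here. The authors deposited expected counts per gene (whole numbers), TPM and FPKM. Small structural RNA takes 2.84% to 27.5% of the counts of a day 7 library, a share that enters the TPM total. The deposited TPM values were therefore used only to rank levels within a group, to sum marker lists and in an alternative.

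The members and gene lists were chosen with earlier results of these data known. The deposited counts were tested with edgeR 4.0.16 (TMM, its low-count filter, quasi-likelihood F test, Benjamini-Hochberg adjustment over all tested genes) in R 4.3.3: 12 libraries per day for genotypes, 12 WT libraries for days, and all 36 for changes of a difference between days. CPM is counts over the library total, small structural RNA included, so CPM ranges and their overlap carry that share. The 4 reporter features (at most 0.0171% of a library) were left out. The standard error is the log2 fold change over the root of F. Members left out by the filter were EPHA10, NTN5 and ROBO4 at day 0, NTNG1 and ROBO4 at day 3, and ROBO4 in the WT course. A member is given in full if called with no overlap of libraries, a mean of at least 5 CPM in the higher group and among the 3 largest changes of its class; 18 were, and the 2 highest WT TPM per class and called members by fold change are also named. Positions are from GENCODE 29 and promoters from RefSeq GRCh38.p14. Same-numbered replicates deviated together in KO against WT at day 0 (r = 0.259 to 0.644) and day 3 (0.128 to 0.564) and HET against WT at day 3 (0.166 to 0.778), the origin of the pairing being these correlations; elsewhere at least 1 of 4 was under 0.1. Alternatives were DESeq2 1.42.0 (alone and its size factors), limma 3.58.1 on log2(TPM + 1), no filter, a replicate block and each library left out. Chosen after seeing the data were limma on log2(FPKM + 1), structural RNA share as a covariate, and WT and HET replicate 1 left out together at day 7. The scripts were tested on simulated data.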

Additional observations from a re-analysis of the deposited data

Results flagged for a closer look

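Each of the 18 members given in full was looked at in the 3 groups of the day of its largest called change. Of these 54 groups of 4 libraries, 5 held a library far from the other 3; about 5% of groups do so by chance. EFNA2 read 0.948 CPM in WT day 0 replicate 2 against 0.483 to 0.533 in the rest of that group, and 9.5 in KO day 0 replicate 1 against 5.76 to 6.38. EFNB2 read 122 in WT day 7 replicate 1 against 69.6 to 73.2, PLXND1 260 in HET day 7 replicate 1 against 61.6 to 77.8, and SLIT1 4.98 in WT day 3 replicate 2 against 3.55 to 3.66. EFNB2's HET difference and its dependence on that WT library are given above.

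The genotype difference changed between days, by a test of the change itself, for 21 members (KO, day 3 against day 0), 36 (KO, day 7 against day 3), 2 (HET, day 3 against day 0) and 16 (HET, day 7 against day 3). Of the members given in full, the KO difference grew from day 0 to day 3, on the log2 scale, by 4.57 for DCC, 3.37 for PLXNA4, 2.1 for SEMA6D, 3.7 for ROBO2 and 2.79 for SLIT1. From day 3 to day 7 it grew by 2.89 for EPHA6, 1.55 for EPHA7, 1.93 for PLXNC1, 6.69 for SEMA3E and 1.98 for SEMA3D. It shifted downward by -2.67 for EPHB4, -2.26 for EFNA2, -1.67 for EFNB2, -4.42 for DCC, -3.01 for UNC5C, -2.71 for SEMA6D and -2.81 for ROBO2. The HET difference grew by 2.5 for DCC from day 0 to day 3. From day 3 to day 7 it grew by 3.01 for EPHA6, 1.53 for EFNB3, 2.68 for UNC5D, 5.11 for SEMA3E and 2.59 for SEMA3D, and shifted downward by -1.37 for EFNA2 (0.17 on the log2(TPM + 1) scale), -2.29 for DCC and -2.12 for SEMA6D. Adjusted p-values of these changes ran from 2.64e-07 to 0.0482 (edgeR).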

How the results depend on the processing

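Counts below are members called. In KO against WT, day 0 gave 6 with DESeq2, 1 on log2(TPM + 1), 5 with no filter and 8 with the replicate block; day 3 gave 15 and day 7 gave 14 on log2(TPM + 1). In HET against WT, day 0 gave 9 with DESeq2, 1 on log2(TPM + 1) and 5 with the block; day 3 gave 1 on log2(TPM + 1) and 7 on log2(FPKM + 1); day 7 gave 0 on log2(TPM + 1) with limma (271 genes of all called there), 16 with the structural RNA covariate and 43 without WT and HET replicate 1. In KO against HET, day 3 gave 1 on log2(TPM + 1) and 35 with the block, whose same-numbered replicates do not all deviate together; day 7 gave 7 with DESeq2, 0 on log2(TPM + 1) and log2(FPKM + 1), 3 with no filter, 4 with the block, 13 with the covariate and 4 without both replicates 1. The KO change of difference gave 3 (day 3 against day 0) and 8 (day 7 against day 3) on log2(TPM + 1); the HET change gave 1 with DESeq2 size factors, log2(TPM + 1), no filter or log2(FPKM + 1) and 4 with DESeq2 (day 3 against day 0), and 1 on log2(TPM + 1) (day 7 against day 3). Leaving out 1 library gave 2 to 4 (KO against WT, day 0), 3 to 4 (HET against WT, day 0), 0 to 0 (KO against HET, day 0), 32 to 46, 7 to 16 and 9 to 24 in that order at day 3, 36 to 42, 16 to 39 and 0 to 6 at day 7, 50 to 55 and 52 to 57 in the WT course, 16 to 23 and 31 to 36 for the KO change, and 0 to 4 and 9 to 24 for the HET change. The lowest and highest were without HET replicates 2 and 4 (HET against WT, day 3), without HET replicate 1 and KO replicate 4 (KO against HET, day 3) and without HET replicates 3 and 1 (HET against WT, day 7, and the HET change from day 3 to day 7), without KO replicate 2 and HET replicate 3 (KO against HET, day 7), and without WT and HET day 3 replicates 1 and 4 (HET change from day 0 to day 3). EFNB2 in HET at day 7 turned to 0.1872 on log2(TPM + 1). The TPM scale shifted the median over all genes by 0.394 (KO, day 3), 0.403 (KO, day 7), 0.641 (HET, day 7) and -0.813 (WT, day 3 against day 0). Over the 46 calls of the members given in full, 46 held with DESeq2, 19 with TPM, 36 with FPKM, 40 with the covariate and 44 with the block; 335 of 368 held with 1 library left out. The cause of these shifts was not tested. SEMA3E in KO at day 7, with few WT counts, ran from 1.71 to 7.81 (log2) over 16 alternatives.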
